A study of Mus musculus with 12 samples.

Results

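The small nucleolar RNAs (snoRNAs) of the imprinted Snrpn locus were followed in the CA1 subfield of the mouse hippocampus with and without the histone acetyltransferase Kat2a. Members were the rows of the table of small non-coding RNAs other than miRNAs (the misc RNA table) whose name starts with Snord115 or Snord116, or is Snord64 or Snord107, with identical count rows kept once. Of 4645 rows, 4 carried such a name, namely Snord116, Snord116l1, Snord116l2 and Snord64. The 3 Snord116 rows held identical counts in every library, so 2 distinct members remained, Snord116 and Snord64. In the table analysed here, 0 rows were named Snord115 and 0 were named Snord107.

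Control mice were Kat2afl/fl without Cre (n = 6 libraries), and Kat2a cKO mice were Kat2afl/fl and CamKIIα-cre+ (n = 6 libraries). All were C57BL/6J, aged 3 to 5 months, and both groups carried the floxed allele. The CamKIIα promoter drives Cre in forebrain excitatory neurons, so other cells of the dissected CA1 keep Kat2a. In such bulk tissue, fewer cells of a type and less RNA per cell cannot be told apart. The labels do not say that each library came from its own mouse, so the p-values measure the spread between libraries, which may in part be technical.

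The locus lies in the Prader-Willi and Angelman region, where the paternal chromosome is transcribed through Snrpn and the long transcript Snhg14 in neurons. Introns of Snhg14 carry tandem snoRNA arrays, which are cut out and trimmed. These snoRNAs are of the box C/D type, in which a C box (TGATGA) near the 5′ end and a D box (CTGA) near the 3′ end bind the proteins that keep the RNA stable. Most box C/D snoRNAs guide the methylation of ribosomal RNA, but Snord116 and Snord64 have no established ribosomal RNA target. Loss of the paternal SNORD116 array is linked to Prader-Willi syndrome in humans. Snord115 is known for a stretch that pairs with the serotonin receptor mRNA Htr2c.

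The sequences show which RNAs the 2 members stand for. They were read from the GENCODE M21 transcripts (GRCm38), in lower case, with the C box and the last D box in capitals. Snord116l1 is the copy against which the others were compared, Snord116l12 is the named copy that differs most from it, and Snord64 is the second member.
Snord116l1: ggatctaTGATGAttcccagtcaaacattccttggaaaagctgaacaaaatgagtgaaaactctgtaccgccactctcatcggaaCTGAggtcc
Snord116l12: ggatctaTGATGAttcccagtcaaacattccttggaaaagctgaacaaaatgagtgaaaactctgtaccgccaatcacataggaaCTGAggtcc
Snord64: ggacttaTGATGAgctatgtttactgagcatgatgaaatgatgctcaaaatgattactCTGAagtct

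Snord116l1 lies at chr7:59894620-59894713, Snord116l2 at chr7:59876933-59877026 and the copy that RefSeq lists as Snord116 (Gm26504) at chr7:59675988-59676081, all on the minus strand of GRCm38 and in introns of Snhg14. Snord64 lies at chr7:59978808-59978874 on the same strand, outside the annotated Snhg14, and overlaps an exon of the protein-coding gene model Gm38393. Both motifs, TGATGA followed by CTGA on the RNA strand, are held by 24% of the 1507 annotated mouse snoRNA transcripts. Snord64 and Snord116l1 share 53.2% of their bases in an end-to-end alignment.

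The Snord116 count cannot be assigned to a single gene. Each deposited Snord116 row spans 90 bases, positions 3 to 92 of the 94-base transcript counted from its 5′ end. The spacing of the rows in the files was 17687 bases from Snord116l2 to Snord116l1, as in GENCODE, and 84189 from Snord116l1 to Snord64, as in RefSeq. Gm26504 differs from Snord116l1 by G1A alone, outside the counted stretch, and Snord116l2 is identical to it. In the minus-strand array 70 snoRNA genes had at least 80% identity to Snord116l1, with a lowest value of 95.7%, and 31 of them contained the same 90 bases. Of the 18 that carry a Snord116 name or synonym, 15 did, while Snord116l9 (C16T), Snord116l12 (C74A, T77A and C81A) and Snord116l14 (G83T) did not. The substitutions read from Snord116l1 to the copy, at positions from its 5′ end. Snord116 is therefore used below for the count shared by identical copies. The Snord64 row spans 46 bases, positions 19 to 64 of the 67-base transcript, and leaves out 21 bases that include the C box.

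Between Snord116l1-like copies and Ube3a the annotation holds another array of 134 snoRNA genes of 78 or 79 bases without a Snord name. Of these, 105 contained a run of at least 18 bases antisense to an Htr2c transcript, against 0 of the 70 copies like Snord116l1. No reads were attributed to these genes under a Snord115 name in the table analysed here.

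Libraries held 1779081 to 8586979 reads in the misc RNA table, 2449121 to 10116062 in the miRNA table and 1119938 to 4464600 in a table of all RNAs. Kat2a had 23 reads over the Control and 13 over the cKO libraries in the table of all RNAs, 0 to 8 per library, too few to check the deletion. Among the miRNAs used as markers, the summed level of the neuronal miR-9, miR-128 and miR-138 was 51600 to 72100 CPM (normalised read count) in Control and 54200 to 61000 in cKO. Oligodendrocyte (2560 to 4380 and 2570 to 4040), leukocyte (74.9 to 178 and 48.0 to 162), endothelial (6470 to 12500 and 8600 to 13200), red blood cell (3620 to 17900 and 6000 to 18100) and choroid plexus or epithelial (2790 to 7160 and 3140 to 7580) sums overlapped between the groups as well. None of the marker rows was at 0 in any library; miR-124, miR-144 and miR-200c had no row under those names. The part of other cell types in the results was not tested.

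Snord116 and Snord64 were well covered in every library. Snord116 had 3266 to 6813 reads in Control and 3389 to 9110 in cKO, and Snord64 had 944 to 4084 and 798 to 6690. At the smallest of these counts, the 798 Snord64 reads of Kat2a cKO replicate 1, the level before scaling was 431 CPM with a 95% Clopper-Pearson interval of 402 to 462. That interval covers counting error only. The spread between libraries was wider, with a coefficient of variation of 16.4% (Control) and 29.6% (cKO) for Snord116 and of 29.2% and 19.3% for Snord64.

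Per counted base, the levels of both snoRNAs lay close together, but this depends on the division by length. Undivided, the Control means were 1400 CPM for Snord116 and 660 CPM for Snord64, ranks 16 and 26 of 69 Snord rows. The Snord116 count also stands for copies with the same 90 bases, 31 in the annotation, and the Snord64 row leaves out 21 bases. Whether reads scale with the counted length was not tested. In Control, Snord116 reached 1556 ± 255 and Snord64 1434 ± 419 CPM per 100 counted bases (SD, n = 6), a difference smaller than either SD. In cKO the values were 1754 ± 519 and 1624 ± 314 (SD, n = 6). Among the 69 Snord rows with distinct counts, they ranked 20th and 22nd by this level in Control. The neighbours in that order were Snord82 above (1972 ± 983), Snord96a between (1477 ± 373) and Snord47 below (1397 ± 322), each differing from Snord64 by less than its own SD. Most Snord reads came from elsewhere. Snord116 made up 0.506% ± 0.076 of all Snord reads in Control (SD, n = 6) and Snord64 0.237% ± 0.063. The 2 Snord rows with most reads, Snord43 and Snord99, had Control means of 85474 and 52507 CPM.

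**Figure D1:**
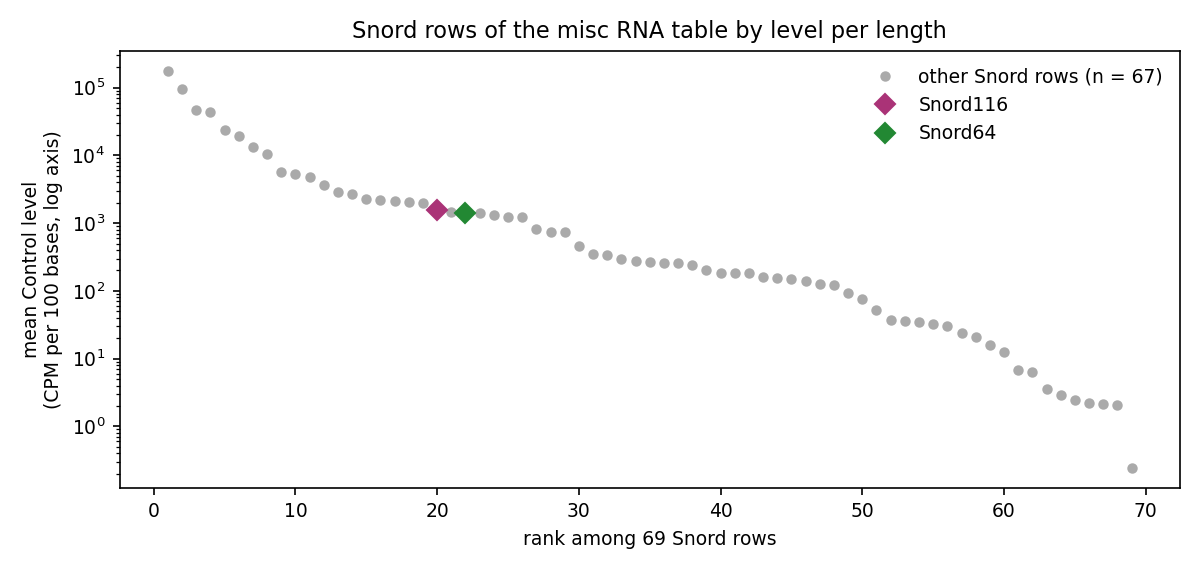
Mean Control level (CPM per 100 counted bases, log axis) of the 69 Snord rows of the misc RNA table against their rank. Snord116 (1556) and Snord64 (1434) stand at ranks 20 and 22, among rows of similar level.

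The host transcripts were close to the detection limit of these libraries. In the misc RNA table Snhg14 was represented by 2 RefSeq synonyms, C230091D08Rik with 2 to 9 reads per library and D7Ertd715e with 0 to 4. Ipw, a non-coding transcript of the same region, had 0 to 10. All 3 stayed under the filter on low counts. Thus in each library at least 3266 Snord116 reads stood beside at most 9 and 4 reads of the 2 Snhg14 rows. The libraries were cut from a gel as a single band of short fragments, so these counts do not give the ratio of the host transcript to the snoRNA in the cell.

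The first comparison asked whether the snoRNAs changed in Kat2a cKO CA1. Neither member passed the test. Snord116 had a lowest, median and highest level of 1128, 1346 and 1768 CPM in Control and of 1083, 1483 and 2138 CPM in cKO. The 2 lowest of all 12 values came from Kat2a cKO replicate 5 and Control replicate 5 and the 2 highest from Kat2a cKO replicates 3 and 1, and the groups overlapped. Its mean was 1400 ± 230 CPM without Cre against 1579 ± 468 CPM with it (SD, n = 6). The fitted log2 fold change was 0.17 ± 0.21 (SE), with a 95% interval of -0.27 to 0.61 and an adjusted p = 0.85 (edgeR quasi-likelihood test, Benjamini-Hochberg).

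For Snord64 the lowest, median and highest levels were 427, 649 and 922 CPM in Control and 495, 760 and 940 CPM in cKO. Control replicate 1 was lowest and Kat2a cKO replicate 2 highest, and the groups overlapped. Its mean went from 660 ± 193 to 747 ± 144.2 CPM (SD, n = 6). The fitted log2 fold change of 0.18 ± 0.22 (SE) had a 95% interval of -0.28 to 0.64 and an adjusted p = 0.85 (edgeR). Expressed as folds, the intervals ran from 0.832 to 1.53 for Snord116 and from 0.821 to 1.56 for Snord64, folds that these data leave possible in both directions.

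**Figure D2:**
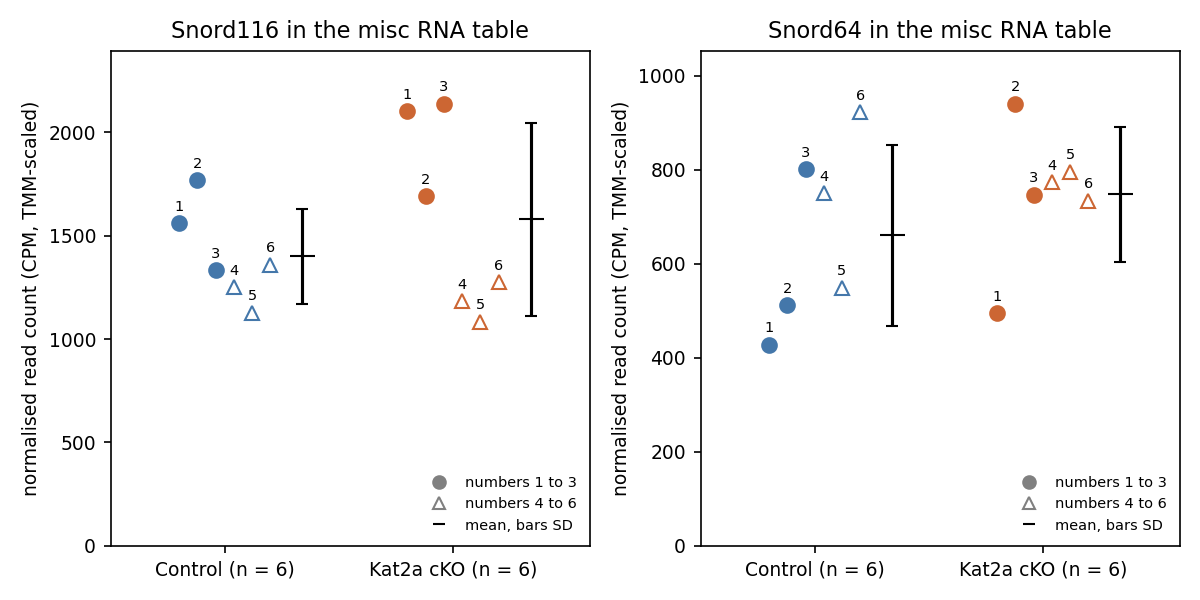
Level of Snord116 (left) and Snord64 (right) in each library of the misc RNA table (CPM, TMM-scaled), labelled by replicate number, with the group mean and SD. The groups overlap for both. For Snord116 the 6 libraries numbered 4 to 6 lie between 1083 and 1360 CPM and those numbered 1 to 3 between 1333.5 and 2138 CPM, so the ranges overlap.

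Of the 2 members, 0 passed an adjusted p of 0.05, against 0% of the 1072 rows tested (edgeR). At an unadjusted p under 0.05 the members also counted 0, against 77 rows (7.18%) by edgeR, 73 by DESeq2 and 45 by limma voom, each with 0 adjusted calls. Both members had a fitted level above Control, as had 58.6% of all rows. Only 1864 of the 4645 rows had distinct counts, so these shares count some reads more than once. With identical rows kept once over the whole table, 27 of 850 rows tested had an unadjusted p under 0.05 (edgeR). Of those 850, 47.1% were fitted higher in cKO. The size of the difference depended on the scaling, and so did the direction of the difference in means. In CPM before scaling, the mean of each member was lower in cKO than in Control. Those values ran from 1230 to 1836 (Control) and from 1061 to 1950 (cKO) for Snord116. For Snord64 they ran from 444 to 965 and from 431 to 827. With relative log expression (RLE) size factors the log2 fold change was 0.06 for Snord116 and 0.10 for Snord64, while the median over all rows tested moved from 0.07 to 0.00. Relative to those medians, Snord116 lay at 0.10 and 0.06 and Snord64 at 0.11 and 0.10.

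The other C/D snoRNAs give the context of these values. Of 67 other Snord rows with distinct counts 64 were tested, and 62 were fitted higher and 2 lower in cKO. Their median log2 difference was 0.28, and 0 passed the test. With RLE size factors 59 were higher and the median was 0.18. Snord43 and Snord99 had log2 differences of 0.16 ± 0.19 and 0.36 ± 0.18 (SE), with adjusted p-values of 0.85 and 0.74 (edgeR). A share of all Snord reads needs no scaling factor, but the rows with most reads, Snord43 and Snord99, weigh most in its total. By this share Snord116 went from 0.506% ± 0.076 in Control to 0.477% ± 0.104 in cKO (SD, n = 6). Snord64 went from 0.237% ± 0.063 to 0.232% ± 0.052 (SD, n = 6). Exact two-sided permutation tests gave p = 0.58 for Snord116 and p = 0.87 for Snord64, adjusted over 6 such tests 0.86 and 0.87. No row carried the names Snord112, Snord113 or Snord114, the C/D snoRNAs of the imprinted Rian transcript.

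The 2 snoRNAs differed in how they varied from library to library. Snord64 had 0.274, 0.289, 0.600, 0.599, 0.486 and 0.678 reads per Snord116 read in Control replicates 1 to 6. In Kat2a cKO replicates 1 to 6 the ratio was 0.235, 0.556, 0.349, 0.653, 0.734 and 0.575. The ratio was lowest in Kat2a cKO replicate 1 and highest in Kat2a cKO replicate 5, and no group held only low or only high values. Its mean was 0.488 ± 0.171 in Control and 0.517 ± 0.189 in cKO (SD, n = 6, exact two-sided permutation p = 0.76, adjusted 0.87).

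**Figure D3:**
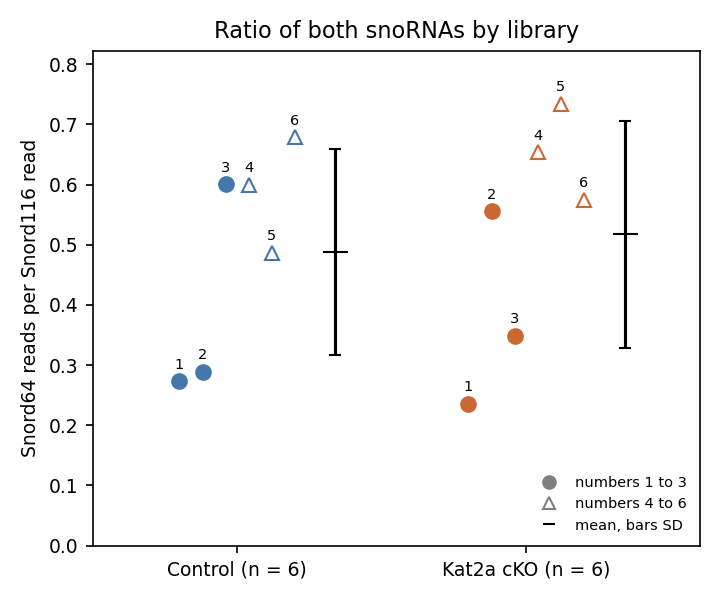
Snord64 reads per Snord116 read in each library, labelled by replicate number, with the group mean and SD. Control (0.488) and cKO (0.517) overlap. The 6 libraries numbered 4 to 6 lie between 0.486 and 0.734 and those numbered 1 to 3 between 0.235 and 0.600, so these ranges overlap too.

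The replicate numbers 1 to 3 and 4 to 6 were known from earlier results of these data to mark libraries of unlike profile. The labels do not say what the numbers stand for. Because the split was chosen with the data seen, its p-values describe these libraries and are no independent support for a difference. Over both groups, Snord116 had a mean of 1765 ± 312 CPM in numbers 1 to 3 and of 1213 ± 102 CPM in numbers 4 to 6 (SD, n = 6). In a fit with group and number set, it was lower in numbers 4 to 6 by a log2 difference of -0.53 ± 0.13 (SE, adjusted p = 0.016, edgeR), but with RLE size factors the value was -0.37 with an adjusted p = 0.066. Scaled by the sum of the miRNA and misc RNA tables it was -0.44 with an adjusted p = 0.060. Leaving out 1 library at a time, the difference stayed negative, from -0.55 to -0.26, and the adjusted p ran from 0.0098 to 0.24. It missed the threshold without Control replicates 1, 2, 5 or 6 or without Kat2a cKO replicates 1, 3, 4 or 5. A drop was not particular to Snord116. Of the 2 Snord rows with most reads, Snord99 had a log2 difference of -0.42 (adjusted p = 0.035, edgeR). Snord43 had 0.30 (adjusted p = 0.22, edgeR). Snord64 had 653 ± 205 and 754 ± 121 CPM (SD, n = 6) and a log2 difference of 0.21 ± 0.20 (SE, adjusted p = 0.56, edgeR). Its value moved to 0.37 with RLE size factors (adjusted p = 0.23), to 0.33 when scaled by the sum of the miRNA and misc RNA tables (adjusted p = 0.23), and to between 0.20 and 0.46 with 1 library left out. The highest, 0.46, came without Control replicate 3, and the adjusted p with a library left out ran from 0.12 to 0.68. Of all rows 18.3% passed this contrast, 15.5% as lower and 2.80% as higher in numbers 4 to 6, against 1 of the 2 members. These shares include rows of identical counts, and the contrast was not refitted with such rows kept once. The ratio of Snord64 to Snord116 was 0.384 ± 0.155 in numbers 1 to 3 and 0.621 ± 0.087 in numbers 4 to 6 (SD, n = 6, exact two-sided permutation p = 0.017, adjusted 0.052).

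Within the number sets, the group difference of Snord116 was 0.35 in numbers 1 to 3 and -0.01 in numbers 4 to 6 on the log2 scale. In numbers 1 to 3 Control averaged 1554 ± 217 CPM and cKO 1977 ± 249 CPM (SD, n = 3), and in numbers 4 to 6 they were 1246 ± 116 and 1181 ± 97 CPM (SD, n = 3). The value in numbers 1 to 3 depends on the scaling. Before scaling, Control replicates 1 to 3 had 1625, 1836 and 1510 CPM. Kat2a cKO replicates 1 to 3 had 1832, 1239 and 1950 CPM, a range that encloses the Control values. The TMM factors were 1.045, 1.043 and 1.136 for these Control libraries and 0.875, 0.735 and 0.916 for the cKO libraries. Kat2a cKO replicate 2 thus went from 1239 to 1690 CPM. The set values come from separate fits, each with its own filter and factors (1067 and 1123 rows). An interaction of group and set was tested in 1 joint fit after the values were seen, so it need not equal their difference. It was -0.42 ± 0.25 for Snord116 (SE, adjusted p = 0.65, edgeR), with 0 of 1072 rows passing and 96 at an unadjusted p under 0.05. For Snord64 the set values were 0.32 and 0.12, with an interaction of -0.28 ± 0.41 (SE, adjusted p = 0.78, edgeR). The other Snord rows had a median log2 difference of 0.405 in numbers 1 to 3, with 63 of 64 higher in cKO. In numbers 4 to 6 their median was 0.169, with 55 of 66 higher. Both members lay below these medians in both sets.

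The 3 rows whose centred log2 level over the 12 libraries was most like that of Snord116 were the C/D snoRNAs Snord68, Snord38a and Snord14c. Their root-mean-square differences from Snord116 were 0.122, 0.14 and 0.145 log2 units. For Snord64 the nearest rows were Snord98, Snord58b and Snord52, at 0.15, 0.17 and 0.20. By the same measure, over 1070 other rows, Snord64 lay at 0.55 from Snord116, farther than 571 of them. Between numbers 4 to 6 and 1 to 3, Snord68, Snord38a and Snord14c had log2 differences of -0.47, -0.58 and -0.43. Their adjusted p-values were 0.028, 0.0098 and 0.085 (edgeR). Snord98, Snord58b and Snord52 had 0.24, 0.10 and 0.20, with adjusted p-values of 0.60, 0.83 and 0.33 (edgeR). The measure of likeness uses all 12 libraries and their shared scaling, and is a description only. Rows picked by it share such differences in part by selection.

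The table of all RNAs held the same snoRNAs with far fewer reads. There the 3 Snord116 copies had different counts, summing to 1952 reads against 69678 for the shared count of the misc RNA table, a ratio of 35.7. Snord64 had 205 reads against 36386, a ratio of 177. Among 65 other Snord names in both tables this ratio had a median of 105 and ran from 0.524 to 4630, with 24 names below Snord116 and 40 below Snord64. How reads that match several transcripts were shared out in either table is not given in the sources used here, so the split among copies is uncertain. The columns of this table name a group but no single sample, and its libraries carry letters in column order.

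In that table the Snord116 copies summed to 70.9 ± 11.4 CPM (Control) against 68.7 ± 7.47 CPM (cKO; SD, n = 6), and the groups overlapped. Gm26504 had a lowest, median and highest level of 12.4, 19.9 and 41.1 CPM in Control and 11.1, 21.5 and 30.5 CPM in cKO. Its fitted log2 difference was -0.16 ± 0.37 (SE), with an interval of -0.96 to 0.65. Snord116l1 ran from 16.7 over 24.1 to 31.7 CPM in Control and from 17.5 over 25.5 to 36.6 CPM in cKO, with 0.12 ± 0.27 (SE). Snord116l2 ran from 10.4 over 21.3 to 41.2 CPM and from 15.4 over 21.8 to 26.8 CPM, with -0.12 ± 0.32 (SE). These 3 copies of 1 sequence thus had fitted differences of both signs, each smaller than its SE. Snord64 ran from 1.75 over 5.41 to 13.3 CPM in Control and from 6.12 over 6.85 to 9.21 CPM in cKO, with 0.05 ± 0.37 (SE). The lowest Snord64 count was 2 reads. Each of the 4 rows had an adjusted p = 0.9999 (edgeR). Of the 4 rows 0 passed, against 0% of 1846 tested rows, and 0 were under an unadjusted p of 0.05, against 81 rows (4.39%). Of the 4, 2 were fitted higher in cKO, against 47.6% of all rows. DESeq2 called 10 rows, with 101 at an unadjusted p under 0.05, and limma voom 0, with 85.

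**Figure D4:**
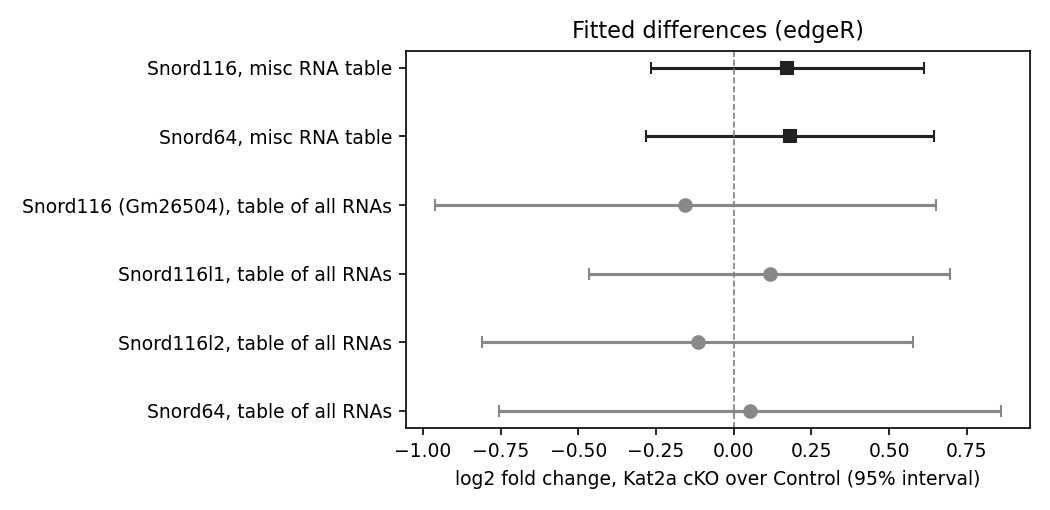
Fitted log2 fold change (cKO over Control) with its 95% interval for the 2 members of the misc RNA table (squares) and the 4 snoRNA rows of the table of all RNAs (circles). Every interval spans 0, and those of the table of all RNAs are wider.

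The protein-coding and long non-coding genes of the region were too thinly covered for a test, and all 12 of their transcript rows in the table of all RNAs fell under the filter. Snrpn, which encodes a spliceosomal protein, had 32 reads in Control and 35 in cKO over its 3 rows, and Snurf, encoded by the same transcript, 8 and 4. Ube3a, the maternally expressed ubiquitin ligase gene of Angelman syndrome, had 18 and 29, and Ipw 1 and 2. Ndn, which encodes necdin, had 27 and 53 reads. Magel2, a ubiquitin ligase partner, had 35 and 22, of which 27 came from Control library e. Mkrn3, a zinc finger gene, had 4 and 5, and Peg12 13 and 6. Atp10a, a phospholipid transporter gene at the edge of the region, had 13 and 438, of which 417 were in Kat2a cKO library c alone, the other 11 libraries holding 0 to 7. No row matched the symbol Snhg14 there.

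Genes that act with these snoRNAs were as sparse. Of the C/D snoRNP protein genes Fbl, Nop56, Nop58 and Snu13, none was tested (0 of 4 rows), and the 2 with most reads, Nop58 and Nop56, core proteins of the particle, had 25 and 15 reads in Control and 8 and 14 in cKO. Of the genes linked to Snord115 or Snord116 in other work, Htr2c, Pcsk1, Nhlh2 and Dgkk, none was tested either (0 of 4 rows). Htr2c, the serotonin 2C receptor gene, had 13 reads in Control and 25 in cKO, and Dgkk, a diacylglycerol kinase gene, 7 and 17, with 0 to 7 and 0 to 5 reads per library.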

How the data were processed

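Small RNA of dissected CA1 was sequenced from 6 Control and 6 Kat2a cKO libraries. RNA was isolated in TRI Reagent, freed of DNA by DNase and made into gel-cut Illumina small RNA libraries, per the labels' protocols. Base calling used CASAVA, per the submitters' processing notes. The aligner, annotation and genome build are not given in the sources used here. The deposited tables hold raw read counts, whole numbers with no normalization. The miRNA table has 1 row without a name, which was left out. Counts were fitted per table by edgeR 4.0.16 in R 4.3.3 with filterByExpr, TMM factors, a quasi-likelihood test on group and Benjamini-Hochberg adjustment over all rows tested, at a threshold of 0.05. CPM values are TMM-scaled unless stated. Transcript rows were named through RefSeq (GRCm38.p6; 26081 of 35230 matched), and snoRNA sequences and positions came from GENCODE M21. Identical member rows were kept once. DESeq2 1.42.0, limma 3.58.1 (voom), RLE factors, other filters, number sets, row handling and each library left out were alternatives. Exact permutation tests (924 assignments) used SciPy. Scripts were tested on simulated counts. Members, lists and the rule for named genes (every member and locus row, the 2 list members with most reads, and the 3 rows most like each member) were chosen with earlier results of these data known.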

Additional observations from a re-analysis of the deposited data

How the results depend on the processing

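No misc RNA row was called under any of 13 other settings or with any of 12 libraries left out (range 0 to 0), the replicate number as a block included (0 calls, Snord116 0.13, Snord64 0.21). Same-numbered libraries had correlations of their deviations from -0.158 to 0.418, and only numbers 1 and 4 were best matched with their own number. These correlations were set against no reference distribution, so they cannot decide whether such libraries were paired. Across the settings fitted, Snord116 kept a positive log2 difference except in numbers 4 to 6 alone (-0.0068). It ran from 0.0058 to 0.257 with a library left out. In CPM before scaling, by contrast, the mean of each member was lower in cKO than in Control. Snord64 ran from -0.0078 (without Control replicate 1) to 0.239. The adjusted p stayed between 0.72 and 0.99 for Snord116 and between 0.68 and 0.999 for Snord64. In the table of all RNAs, DESeq2 called 10 rows and leaving out a library gave 0 to 2. There the sign of each snoRNA row was not stable: Gm26504 ran from -0.274 to 0.11 with a library left out (above 0 without Control libraries a and d), Snord116l1 from -0.0025 to 0.23, Snord116l2 from -0.247 to 0.12, and Snord64 from -0.12 to 0.377; Snord116l2 was 0.014 with no filter and 0.0341 with voom. Other reversed values were 0.0045 for Gm26504, 0.003 for Snord116l2 and -0.0229 and -0.0198 for Snord64. The cause was not tested. In that table Snord64 had 2 to 34 reads per library. Gm26504 had 15 to 112, Snord116l1 19 to 89 and Snord116l2 29 to 111.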
